A study of Mus musculus with 4 samples.

Results

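The promoters of the cytosolic ribosomal protein genes were examined in ATAC-seq peak lists of differentiating mouse embryonic stem cells (mESCs). Overlapping peaks of the 4 libraries were merged into 40910 union regions. A region was a member when it lay within 1000 bp of a transcript start of a protein-coding gene whose symbol is Rpl or Rps followed by a number. Rps6k kinases and pseudogenes were left out. This gave 83 regions, of 16595 regions at the promoters of coding genes. They belonged to 75 of the 82 genes that match the symbol rule. Beyond the presence of a peak, no measured value was used to choose them.

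The cells were ES-E14TG2a, a mouse ES cell line grown without feeders and differentiated as embryoid bodies in serum-free medium. Libraries were made from the whole culture at day 2 (d2), before growth factors were given, and at day 4 (d4), after reaggregation with Activin A, BMP4 and VEGF. Each time point had 2 libraries, made from independent differentiations, and both groups were the same line with no genetic change. In such bulk samples, fewer cells with an open promoter and a less open promoter in each cell cannot be told apart.

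The peak lists held 21299 to 26865 peaks, and the background coverage was 0.483 to 0.568 per base at d2 and 0.744 to 0.755 at d4. The cell type labels were checked against promoter peaks of marker genes. Of 8 pluripotency genes, Pou5f1, Zfp42 and Esrrb had a peak in both d2 libraries but not in both d4 libraries, and Sox2 and Klf4 had one in all 4. Of 8 mesoderm genes, Pdgfra, Gata4 and Hand1 had a peak in both d4 but not in both d2 libraries, T and Eomes showed the reverse, and Mixl1 had one in all 4. Of 8 endothelial genes, Kdr and Etv2 had a peak in all 4 libraries and Flt1 in both d2 but not both d4 libraries, and the defining genes Cdh5 and Pecam1 did not have one in both d4 libraries. The marker lists thus did not move as a whole with their labels.

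The ribosome is built from a small subunit (40S) and a large subunit (60S), each made of ribosomal RNA and of many proteins, most of them present in a single copy and so needed in equal amounts. Their genes are scattered over the genome, lie in short CpG-rich promoters that usually lack a canonical TATA box, and are transcribed at a high rate in nearly all growing cells. The messenger RNAs typically begin with a run of pyrimidines, the 5' terminal oligopyrimidine (TOP) motif, through which mTOR signalling controls their translation. Here the members lay on 19 chromosomes, with the most, 16 regions, on chromosome 7.

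Promoter sequences of 8 members are given first. Of the 82 genes, 63 had an entry in the RefSeq promoter table (GRCm38.p6, the build of mm10). The 8 windows below run from 100 bases before the RefSeq start to 15 bases from it, on the strand of the gene, and capitals mark the longest unbroken run of C and T within 15 bases of the start and the motif matches named after them. Rpl7a and Rpl36a are shown because their accessibility differed between d2 and d4, and Rpl37, Rpl15 and Rps21 because they were among the most accessible. Rpl23 was the least accessible of the members called in all 4 libraries. Rps4x is shown because it had peaks at d4 only, and Rpl27a for its long run.
Rpl7a: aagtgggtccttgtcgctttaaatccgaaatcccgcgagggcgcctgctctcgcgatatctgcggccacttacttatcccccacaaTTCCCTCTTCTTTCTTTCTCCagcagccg
Rpl27a: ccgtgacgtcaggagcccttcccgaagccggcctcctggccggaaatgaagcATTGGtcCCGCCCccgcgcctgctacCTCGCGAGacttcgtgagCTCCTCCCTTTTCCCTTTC
Rpl15: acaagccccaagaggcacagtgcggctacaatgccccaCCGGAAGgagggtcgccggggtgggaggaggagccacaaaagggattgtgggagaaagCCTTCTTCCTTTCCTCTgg
Rps21: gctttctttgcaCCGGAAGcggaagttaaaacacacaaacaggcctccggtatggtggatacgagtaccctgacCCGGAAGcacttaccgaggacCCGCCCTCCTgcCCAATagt
Rpl37: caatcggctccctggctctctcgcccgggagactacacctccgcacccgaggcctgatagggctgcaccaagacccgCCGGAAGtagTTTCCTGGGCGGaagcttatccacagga
Rpl36a: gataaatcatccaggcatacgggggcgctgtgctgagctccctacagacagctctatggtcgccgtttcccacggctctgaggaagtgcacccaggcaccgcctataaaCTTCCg
Rpl23: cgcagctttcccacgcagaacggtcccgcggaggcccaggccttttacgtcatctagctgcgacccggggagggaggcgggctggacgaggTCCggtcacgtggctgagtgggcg
Rps4x: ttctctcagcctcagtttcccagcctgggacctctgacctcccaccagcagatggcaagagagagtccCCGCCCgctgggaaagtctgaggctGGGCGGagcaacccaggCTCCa

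In Rpl7a (chr2:26910707-26910821, plus strand) the run of C and T was 21 letters long and began 14 bases before the start. It was the longest among the members with an entry, as counted within 15 bases of the start. In Rpl27a (chr7:109519095-109519209, plus strand) the run held 19 letters from 4 bases before the start, behind a CTCGCGAG palindrome at -22, a GC box at -41 and a CCAAT box at -48. This run reached the edge of the 15 bases searched and may extend further. Rpl15 (chr14:18270972-18271086, minus strand) had a run of 17 letters and an ETS motif at -62. Rps21 (chr2:180257279-180257393, plus strand) had ETS motifs at -88 and -26, a GC box that overlapped its run of 7 letters, and a CCAAT box at 8. Rpl37 (chr15:5116513-5116627, plus strand) had an ETS motif at -23 and a GC box at -7 with a run of 6 letters between them. Rpl36a (chrX:134585554-134585668, plus strand) held a run of 5 letters, and Rpl23 (chr11:97782425-97782539, minus strand) one of 3 letters, and neither held a match to an ETS, GC box, YY1, CCAAT box, NRF1 or CTCGCGAG motif in this window. The letters TATAAA stand just after the start of Rpl36a, outside the stretch before the start in which TATA was counted. Rps4x (chrX:102189377-102189491, minus strand) held GC boxes at -32 and -7 and a run of 4 letters. Positions count from 1 at the start base, with -1 just before it.

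Motifs were searched on both strands of the 300-base RefSeq promoters, which reach from 250 bases before the start to 50 bases from it. Of the 75 genes with a member region 56 had an entry. A run of C and T of at least 8 letters within 15 bases of the start was present in 24 of the 56 (42.9%). The share was 11.2% of 7971 other coding genes with a peak region in all 4 libraries and 11.9% of all 27025 RefSeq promoters. In translation factor genes the share was 20.4%, and in mitochondrial ribosomal protein genes 13.4%. The median run was 6.5 letters in the members, and 4 in the other coding genes and in all RefSeq promoters. The longest run, of any length, covered the start base itself in 16 members (28.6%), against 9.86% and 11.2%. The ETS motif (CCGGAAG, bound by ETS family factors such as GABPA) occurred in 21 (37.5%), against 19.1% of the other open coding genes and 9.12% of all promoters, and its share was 34.3% in the mitochondrial ribosomal protein genes and 30.6% in translation factor genes. The palindrome CTCGCGAG occurred in 6 (10.7%), namely Rpl12, Rpl26, Rpl27a, Rps19, Rps28 and Rps6, against 2.25% and 0.958%, and in 2.99% of the mitochondrial ribosomal protein genes and none of 49 translation factor genes.

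The YY1 motif (AANATGGC) was found in 12 member promoters (21.4%), against 9.15% of the other open coding genes and 6.23% of all promoters, and in 31.3% of the mitochondrial ribosomal protein genes and 18.4% of translation factor genes. The GC box (GGGCGG, bound by Sp1 and related factors) was found in 35 (62.5%), a share below the 68.8% of the other open coding genes and above the 35.9% of all promoters. The CCAAT box was found in 18 (32.1%), against 41.1% and 37.9%, and the NRF1 motif (GCGCNTGCG) in 5 (8.93%), against 15.6% and 6.59%. On the plus strand between 40 and 20 bases before the start, TATA occurred in 7 members (12.5%), against 2.22% of the other open coding genes and 5.67% of all promoters, and TATAAA in 1, the paralog Rpl22l1, against 0.815% and 2.09%. No motif contains the letters of another except that TATAAA includes TATA, but neighbouring matches can overlap. The median GC content of the member promoters was 58.2%, lower than the 61.7% of the other open coding genes. It was above the 52.7% of all promoters and close to the 58% of the mitochondrial ribosomal protein genes. Among the members the GC content ranged from 40.7% in Rpl4 to 72.3% in Rps10. These shares describe letters in fixed windows and are not binding data.

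**Figure D1:**
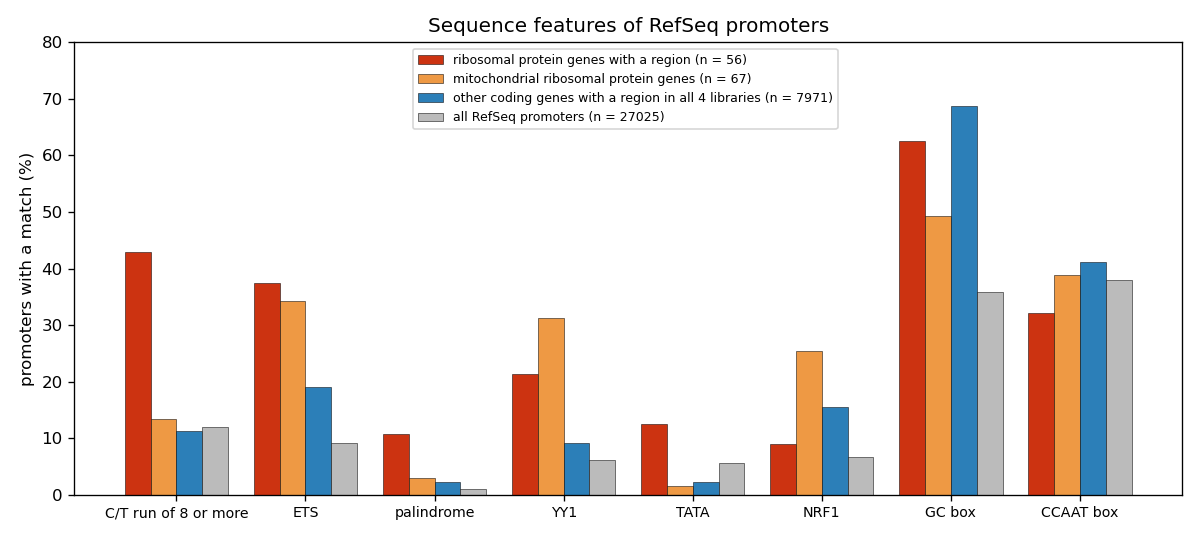
Share of RefSeq promoters (vertical axis, percent of promoters) that hold each sequence feature, for ribosomal protein genes with a region, mitochondrial ribosomal protein genes, other coding genes with a region in all 4 libraries and all promoters. The C/T run stands at 42.9% in the ribosomal protein genes and at 11.2% to 13.4% in the other 3 sets, the ETS motif is nearly as frequent and the YY1 motif more frequent in the mitochondrial ribosomal protein genes, and the GC box and the CCAAT box are no more frequent in the ribosomal protein genes than in the other open coding genes. The palindrome is CTCGCGAG.

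Most members were accessible at both time points. A peak was called in all 4 libraries at 65 of the 83 regions (78.3%), compared with 57.3% of all coding promoter regions and 28.1% of all union regions. A further 8 regions had a peak in 3 libraries, 5 in 2 libraries and 5 in 1 library. The 60S genes had 46 regions, of which 34 (73.9%) were called in all 4 libraries, and the 40S genes had 33 regions, of which 27 (81.8%) were. All 4 regions of the paralogs (Rpl7l1, Rpl22l1, Rpl36al and Rps27l, close relatives of the standard genes) were called in all 4 libraries. Counted by gene, 34 of the 43 genes of the 60S subunit and 25 of the 30 genes of the 40S subunit had a region called in all 4 libraries.

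The 7 genes without a region were Rpl37a and Rps25 among the standard genes, and Rpl10l, Rpl39l, Rpl3l, Rps19bp1 and Rps27rt. Rpl10l and Rpl39l encode paralogs used in the testis, and Rpl3l one used in muscle. A missing peak is not a value of 0, because the lists hold nothing below the authors' threshold, and the smallest pileup called was 6 at d2 and 7 at d4.

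At d2, replicate 1 had a peak at 70 member regions and replicate 2 at 79. At d4 the numbers were 76 and 74. The d2 replicate 1 list was the longest and still held the fewest members. The median raw pileup over the 65 members called in all 4 libraries was 21 in d2 replicate 1 and 26, 28 and 28 in the rest. By share, d2 replicate 1 called 84.3% of members and 82.3% of all coding promoter regions, and d2 replicate 2 called 95.2% and 84.8%. The d4 libraries called 91.6% and 89.2% of the members and 69.9% and 69.2% of all coding promoter regions. How far depth set these shares was not tested.

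**Figure D2:**
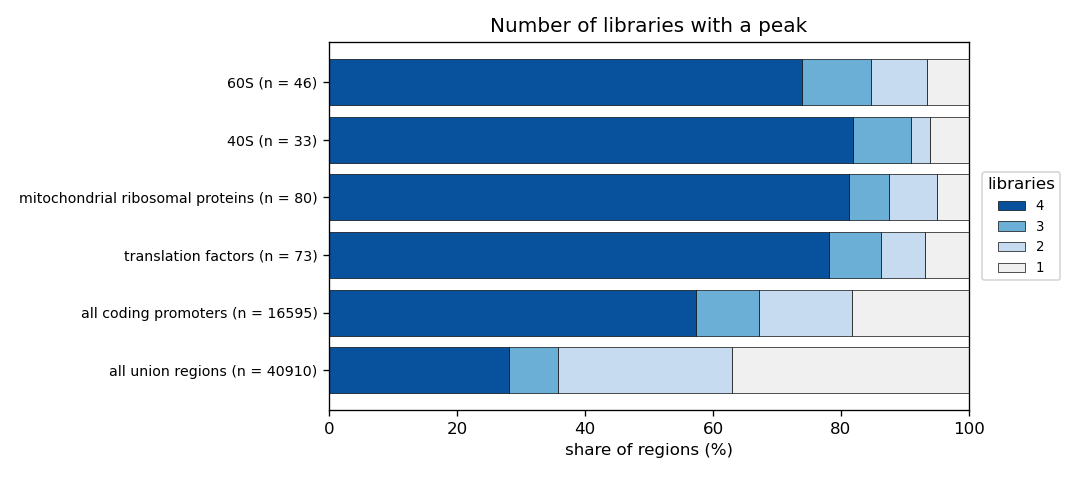
Share of regions (horizontal axis, percent) with a peak in 4, 3, 2 or 1 of the libraries, for 60S and 40S genes, mitochondrial ribosomal proteins, translation factors, all coding promoters and all union regions. The 60S and 40S bars reach 73.9% and 81.8% for all 4 libraries, next to 81.2% and 78.1% for the mitochondrial proteins and the translation factors and 57.3% for all coding promoters.

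Members that followed the time point in their calls were few. One region (1.20% of the members) was gained, that is called in both d4 and neither d2 libraries, compared with 2.02% of all coding promoter regions and 9.93% of all union regions. This was Rps4x (chrX:102189090-102189468, over the start), the X-linked gene of a 40S protein. Its summit pileups at d4 were 10 (95% Poisson interval 4.80 to 18.4) and 11 (5.49 to 19.7), close to the smallest pileup called. Such intervals cover counting error only.

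A pair of regions (2.41% of the members) were lost, that is called in both d2 and neither d4 libraries, compared with 9.15% of all coding promoter regions and 13.8% of all union regions. The first lay 53 bp downstream of a start of Rpl4 and within reach of Zwilch (chr9:64173446-64173602), with pileups of 9 and 6 at d2. The second region of Rpl4 (chr9:64172622-64173068, 307 bp upstream) was called with 10 and 8 at d2 and 9 in d4 replicate 2. The other lost region lay 825 bp from an alternative start of Rpl18 and also within reach of Fam83e (chr7:45720980-45721272), with pileups of 13 and 12 at d2. The region at the first start of Rpl18 (chr7:45714993-45715484), shared with Sphk2, was called in all 4 libraries with 27 and 40 at d2 and 36 and 43 at d4. Neither lost region overlapped the start of its gene.

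The other members without a peak in every library were not all weak. Some of their pileups lay above the library medians of 16 to 18 over all peaks, and others below. Rpl31, whose region overlapped the start, was called in d4 replicate 1 only, with a pileup of 23 (interval 14.6 to 34.5). Rpl8 was also called in d4 replicate 1 only, with 13. Rpl36 had 23 in each of d2 replicate 2 and d4 replicate 1, and Rpl6 had 11 and 12 in the same libraries. The Rpl35a region, shared with Iqcg, was missing in d2 replicate 1 and had pileups of 16, 29 and 11 in the others, and that of Rps28, shared with Ndufa7, had 13, 21 and 12. Rps15 had 24, 24 and 21, and Rpl19 had 16, 10 and 17, again without d2 replicate 1. The second region of Rpl18 (chr7:45717938-45718186, shared with Sphk2) was missing in the same library and had 21, 14 and 22. It covered the RefSeq start and had 5 annotated Rpl18 transcript starts within 1000 bp, against 1 at the first region. Rpl18 thus counts among the genes called in all 4 libraries through its first region only. Rpl23a was missing in d2 replicate 2, with 16, 17 and 19 in the others. Second regions of Rpl3 and Rps14 away from the main start were called in d2 replicate 2 only, with pileups of 14 and 12. The library most often missing among the members was d2 replicate 1.

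Levels were compared as summit pileups, the number of fragments or reads stacked over the highest base of a peak. The pileup was solved from the deposited fold enrichment and −log10 p and divided by a library factor, the median ratio over the 11494 regions called in all 4 libraries. Among the 65 members called in all 4 libraries, the mean scaled pileup had a median of 24.9 and ranged from 12.6 to 67.1. The median of all 11494 regions was 24.4. The members' median percentile among coding promoters called in all 4 libraries was 47.4, with 4 members above the 90th and 7 below the 10th percentile. The members were thus spread over the whole range of open coding promoters. The 60S regions had a median of 24.4 and the 40S regions one of 24.2.

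The highest level was that of Rpl37 (chr15:5116187-5116895), a zinc finger protein of the 60S subunit. Its scaled pileups were 62.3 and 58.3 at d2 and 73.3 and 74.6 at d4. Rpl15 (chr14:18270790-18271476, shared with Nkiras1) followed, with 51.1 and 59.2 at d2 and 65.6 and 64.8 at d4. The paralog Rpl36al (chr12:69183750-69184881, shared with Mgat2) had 56.7 and 47.0 at d2 and 50.2 and 38.3 at d4. Rps21 (chr2:180256913-180257560) had 36.7 and 47.0 at d2 and 40.5 and 51.1 at d4. Among these 4 regions, the library values of Rpl36al and Rps21 overlapped with each other. The values of Rpl15 overlapped those of Rpl37 and those of Rpl36al at d2, but neither at d4.

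The lowest levels among the members called in all libraries were those of Rpl23, an alternative upstream start of Rps24, Rpl38, Rps16 and the paralog Rpl7l1. Rpl23 (chr11:97782150-97782572) had scaled pileups of 10.0 and 12.2 at d2 and 11.6 and 16.7 at d4. Rpl38 (chr11:114668417-114669167), whose loss alters Hox mRNA translation in mice, had 15.6 and 13.2 at d2 and 14.5 and 12.8 at d4. Rps16 (chr7:28350348-28350778) had 17.8 and 12.2 at d2 and 13.5 and 15.7 at d4. Rpl7l1 (chr17:46782419-46782987) had 14.5 and 16.9 at d2 and 12.5 and 15.7 at d4. The values of these 4 regions overlapped between genes and between time points, so that no order among them stood above the spread of the libraries.

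The 3 X-linked members called in all libraries, Rpl10, Rpl36a and Rpl39, had a median level of 18.8, and the 62 autosomal members had one of 25.1. The same 2 medians over all coding promoters called in all libraries were 20.4 (309 regions) and 25.8 (9201 regions). The fourth X-linked gene was Rps4x, described above.

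**Figure D3:**
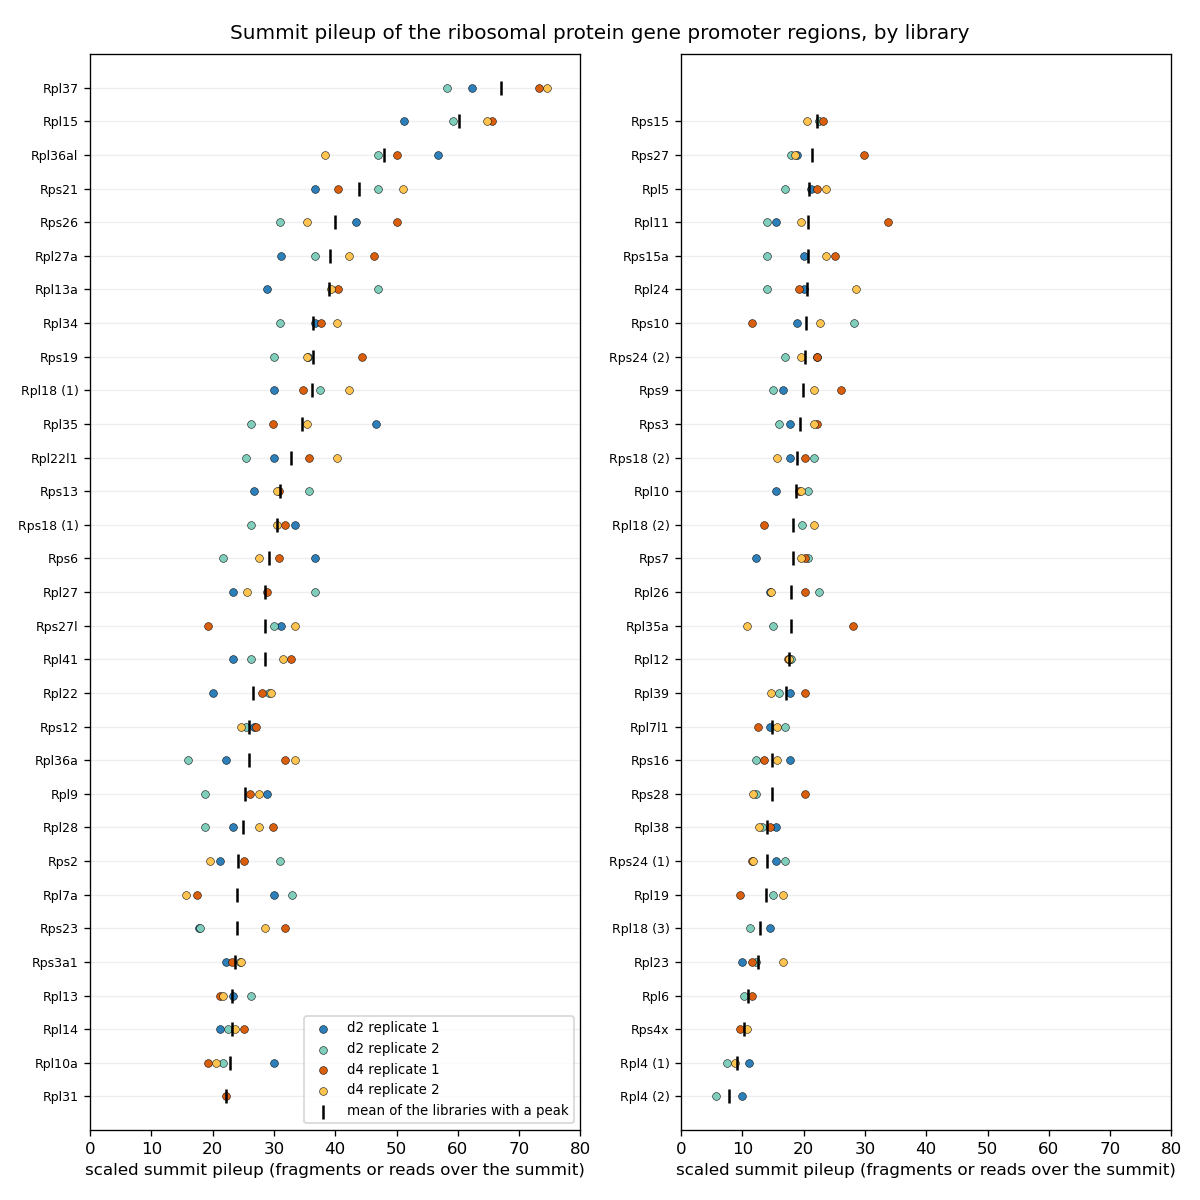
Scaled summit pileup (horizontal axis, linear) of the 61 member regions whose gene has a RefSeq promoter entry, in each library with a peak, ordered by the mean over those libraries (black bar); numbers in brackets tell apart several regions of 1 gene, in order of position. Levels run from 67.1 for Rpl37 down to the regions called in few libraries, and the colours of d2 and d4 are mixed in most rows but apart in rows such as Rpl7a and Rps23.

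The peaks sat on the starts. Of the 83 member regions 76 overlapped a transcript start of the gene, and of the 7 others 1, at an alternative start of Rps18 near B3galt4, was called in all 4 libraries. Among 63 regions called in all libraries and next to a start with a CCDS tag, the median summit position relative to the start was -32 and -21 bp at d2 and -21 and -27 bp at d4, that is just upstream. Between 51 and 54 of the 63 summits lay within 150 bp of the start in each library. The summit position varied by a median of 91 bp among the libraries, and in 36 regions by 100 bp or less. The summit of Rps26 stayed within 1 bp, with a median of -84.5 bp. Relative to the start used, Rpl35, Rpl30 and Rps10 had their summits downstream, at medians of 440, 320.5 and 199.5 bp. Rpl10 had its summit upstream, at a median of -409 bp. For Rpl35 and Rps10 the start used (39005624 and 27635545) lay upstream of the peak region, while another annotated start lay within it. Their distances therefore depend on the start chosen and do not show a summit downstream of every start. The median peak width was 385 and 427 bp at d2 and 442 and 449 bp at d4.

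**Figure D4:**
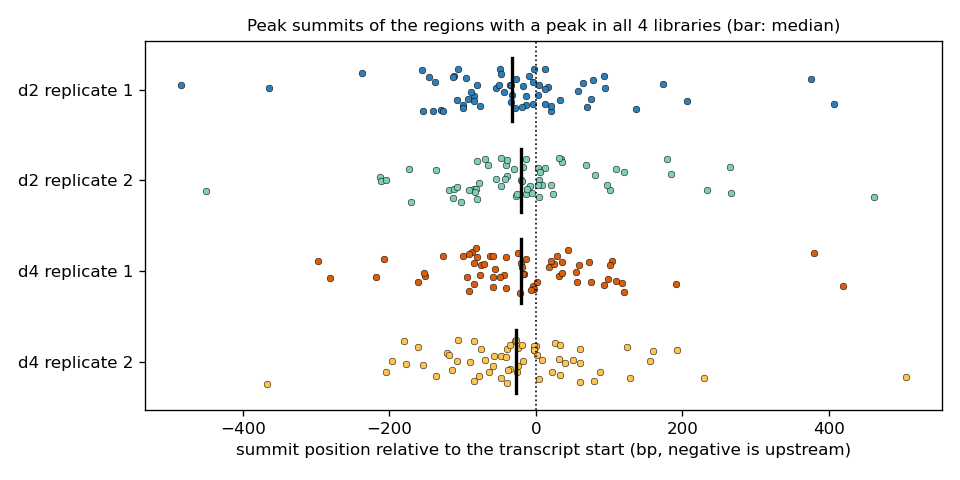
Distance in bp (horizontal axis, negative is upstream) from the transcript start to the peak summit in each library, for the 63 member regions called in all 4 libraries with a CCDS start; 1 point is 1 region, spread vertically only to separate points, and the bar is the median. The medians lie between -32 and -21 bp in all 4 libraries, with a few points beyond 300 bp on either side.

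The comparison of d4 with d2 asked whether these promoters kept their level between the time points. Of the 65 members fitted, 2 rose and 1 fell (limma with a mean-variance trend on log2 scaled pileup, two-sided, Benjamini-Hochberg adjusted p below 0.05 over all 11494 regions). Over all regions fitted 575 rose (5.00%) and 429 fell (3.73%). With scaling by background coverage instead, 0 members rose and 1 fell, and of all regions 23 rose and 998 fell. An exact permutation test of 2 libraries against 2 cannot give a p below 0.333, so single regions were judged by the fit across all regions alone.

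The members' log2 differences had a median of 0.168 (1.12-fold higher at d4), while the median of all regions was -0.01. A difference above 0 was seen in 44 of 65 members (67.7%), compared with 49.2% of all regions. At 22 members (33.8%) both d4 values were above both d2 values, and at 7 (10.8%) both were below, against 25.3% of all regions in each direction. No member differed by as much as 1 on the log2 scale. The 60S regions had a median difference of 0.19 with 1 risen and 1 fallen of 34, the 40S regions one of 0.13 with 1 risen and none fallen of 27, and the 4 paralog regions one of -0.20 with none called. Scaling by background coverage moved the median of all regions to -0.45 and that of the members to -0.28. Such a scaling moves every region by the same amount, so it leaves the members' median 0.18 above that of all regions by construction, while the sign of the members' median depends on it. With quantile normalization and with the deposited fold enrichment, which do not move all regions alike, the members' median stood 0.14 and 0.11 above that of all regions.

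**Figure D5:**
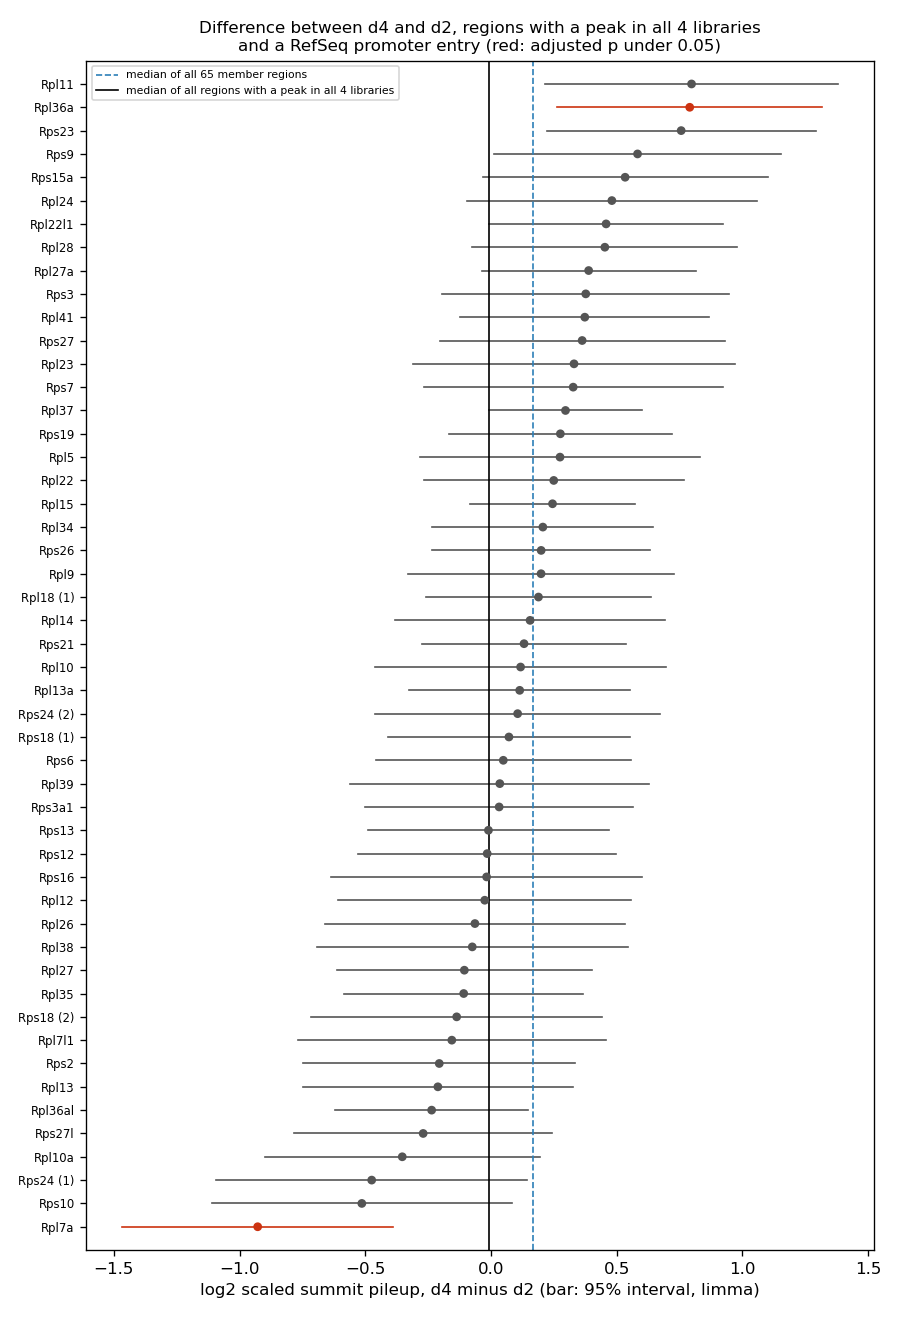
Log2 difference in scaled summit pileup, d4 minus d2 (horizontal axis), for the 50 member regions called in all 4 libraries whose gene has a RefSeq promoter entry, with 95% intervals from limma; red marks an adjusted p below 0.05. The dashed line is the median of 0.168 over all 65 members fitted and the solid line that of all regions, -0.01. Rpl36a (red, right) and Rpl7a (red, left) are the called regions drawn, and most other intervals include 0.

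Rpl36a (chrX:134585365-134585890), a 60S protein encoded on the X chromosome, was among the risen members and had raw pileups of 20 and 17 at d2 and 33 and 34 at d4. The scaled values were 22.2 and 16.0 at d2 and 31.8 and 33.4 at d4, without overlap. The log2 difference was 0.79 (SE 0.26, interval 0.26 to 1.32, limma adjusted p = 0.0458). The call was lost in 10 of 16 alternative settings, among them leaving out d2 replicate 2, d4 replicate 1 or d4 replicate 2 (limma adjusted p = 0.262, 0.235 and 0.281).

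Rpl7a (chr2:26910404-26910994), a 60S protein, was the member that fell. The region also covers the start of the divergent gene Med22, a subunit of the Mediator complex, and a peak over both starts cannot be assigned to either. Regions are called shared here when another coding gene had a transcript start within 1000 bp, whether or not the peak covered that start. By this wider rule 22 of the 83 member regions and 14 of the 65 fitted were shared. Raw pileups were 27 and 35 at d2 and 18 and 16 at d4, and scaled values were 30.0 and 32.9 against 17.4 and 15.7. The log2 difference was -0.93 (SE 0.27, interval -1.47 to -0.39, limma adjusted p = 0.0196), or 0.526-fold. Without d2 replicate 2, d4 replicate 1 or d4 replicate 2 the limma adjusted p was 0.105, 0.124 and 0.210.

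Other members with large differences did not pass the test. Rpl11, a 60S protein that binds Mdm2 when ribosome assembly is disturbed, had scaled pileups of 15.6 and 14.1 at d2 and 33.8 and 19.6 at d4. Its log2 difference was 0.80 (SE 0.29, limma adjusted p = 0.0731), and the d4 values were far apart. Rps23, a 40S protein of the decoding centre, had 17.8 and 17.9 at d2 and 31.8 and 28.5 at d4, with a difference of 0.76 (limma adjusted p = 0.063). Rpl7 had 23.3 and 27.3 at d2 and 37.6 and 39.3 at d4, with a difference of 0.61 (limma adjusted p = 0.0976), in a region shared with Rdh10. All 3 had both d4 values above both d2 values.

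On the other side, Rps10, mutated in some patients with Diamond-Blackfan anaemia, had 18.9 and 28.2 at d2 and 11.6 and 22.6 at d4, so that the time points overlapped (difference -0.51). The upstream alternative start of Rps24 (chr14:24486891-24487179, shared with Polr3a) had 15.6 and 16.9 at d2 and 11.6 and 11.8 at d4 (difference -0.47). The main start of Rps24 (chr14:24490544-24490945) had 22.2 and 16.9 at d2 and 22.2 and 19.6 at d4 (difference 0.11). Rpl10a had 30.0 and 21.6 at d2 and 19.3 and 20.6 at d4, with a difference of -0.35. The most accessible members had differences of 0.30 for Rpl37, 0.24 for Rpl15, 0.13 for Rps21 and -0.24 for Rpl36al, each with an interval that included 0.

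Spread between replicates set the limit of these comparisons. The log2 difference between the 2 d2 libraries had an SD of 0.40 over the 65 members, and that between the 2 d4 libraries one of 0.32. The differences between a d4 and a d2 library had SDs of 0.38 to 0.48. Over all 11494 regions the SDs were 0.42 and 0.34 between replicates and 0.49 to 0.56 between time points. Among the members the spread between time points was thus closer to that between replicates than among all regions, as a description without a test. The median SE of a member's difference was 0.27, so that a difference of about the size of the members' median could not be told from 0 at a single promoter.

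Other promoters of the translation machinery served for comparison. The 7 cytosolic ribosomal proteins with other symbols, among them Rplp0, Rplp1 and Rplp2 of the P stalk, Rpsa, Fau and the 40S scaffold protein Rack1, were called in all 4 libraries. Their median log2 difference was 0.20, above 0 in 6 of 7, and none passed the test. Rplp0 had scaled pileups of 21.1 and 29.1 at d2 and 36.7 and 25.5 at d4, and Rack1 had 31.1 and 17.9 at d2 and 29.9 and 28.5 at d4, so both overlapped between time points. Rpsa had the lowest difference, -0.02, and those of Rplp1, Rplp2 and Fau were 0.13, 0.29 and 0.20.

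The mitochondrial ribosomal proteins, which form the separate ribosome of mitochondria, had 80 regions, of which 65 (81.2%) were called in all 4 libraries, 1 was gained and 2 were lost. Their median log2 difference was 0.15, close to the 0.168 of the cytosolic members, with 7 risen and none fallen. Those that rose were Mrpl1, Mrpl17, Mrpl21, Mrpl32, Mrpl39, Mrpl50 and Mrps30, with log2 differences of 0.41 to 1.19. The translation factors had 73 regions, 78.1% called in all libraries, with a median difference of 0.06, 2 risen (Eif3f and Eif3h) and 1 fallen (Eef2k). In calls and in level the cytosolic members stood beside these lists, and no difference between the lists was tested.

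Levels were also set beside the motifs, over the 48 member regions with a CCDS start called in all libraries and a RefSeq entry. The 18 regions with an ETS motif had a median scaled pileup of 26.3 and a median log2 difference of 0.04, and the 30 without had 23.6 and 0.19. The 22 regions with a run of C and T of at least 8 letters had a median pileup of 24.4, and the 26 without had 23.8. With a GC box (32 regions) the median pileup was 25.0 and the median difference 0.12, and without (16 regions) 20.9 and 0.22. For the YY1 motif the values were 23.1 and 0.32 in 10 regions with it, and 24.0 and 0.08 in 38 without. For the CCAAT box they were 23.1 and 0.13 in 17 regions with it, and 24.2 and 0.19 in 31 without. These medians lie well within the range of single members.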

How the data were processed

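ATAC-seq peak lists of ES-E14TG2a mESCs were analysed, 2 libraries at d2 and 2 at d4, grouped by their labels. As described in the methods of the study and in the processing notes of the submitters, reads were checked with FastQC, trimmed with cutadapt and aligned to mm10 with Bowtie2. Mitochondrial, duplicate and multiply mapped reads were removed, and peaks were called with MACS2 in each library separately and without a control library. Removing multiply mapped reads could lower coverage over first exons that processed pseudogenes copy, which was not tested. The deposited fold enrichment is a ratio of pileup to local background at the summit, and the deposited −log10 p and −log10 q are the authors' Poisson p-values before and after correction. The deposited summit offset gave summit positions.

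Pileup and background were solved from fold enrichment and p, and 100% of the peaks of every library came out whole (tolerance 0.01 in −log10 p). They give relative depth, not read totals. Peaks overlapping by 1 bp or more were merged. Transcript starts were those of GENCODE release M 21 on GRCm38. Starts with a CCDS tag and the most transcripts were used for summit distances, and ties went to the most upstream start. Pileups were scaled by median of ratios and tested with limma 3.58.1 (R 4.3.3) over regions called in all 4 libraries, with no block. Both scripts that solve and test were tested on simulated data. Other steps used Python 3.11.15, pandas 2.3.3 and scipy 1.17.1. Where a library had several peaks in a union region, the highest was used.

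Members and lists were chosen with earlier results of these data known. Genes named were those without a peak in every library, the 5 highest and 5 lowest levels, the 5 largest and 5 smallest differences, those past the test and 7 ribosomal proteins with other symbols. Others are named as examples chosen after their values were seen. Some genes are not reported here. The plots of levels and differences show the regions of genes with a RefSeq promoter entry. Alternatives were other windows, peak thresholds, merging rules, scalings, filters and fits, the replicate block, and each library left out.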

Additional observations from a re-analysis of the deposited data

How the results depend on the processing

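None of the 3 called members kept its call under every setting, and the cause of these changes was not tested. The number of members that rose was 2, and it was 0 with background coverage scaling, quantile normalization, the deposited fold enrichment or no trend, and 1 with a mean pileup of at least 20, coding promoters only or regions called in at least 3 libraries. The number that fell was 1, and it was 0 with quantile normalization, the deposited fold enrichment, regions called in at least 3 libraries, and without regions shared with another coding gene (a setting chosen after seeing the data, which removes Rpl7a). Leaving out 1 library at a time gave 0 to 2 risen and 0 to 1 fallen members, with the lone library assumed to vary like the others, and no call without d4 replicate 1 or d4 replicate 2. With quantile normalization and the deposited fold enrichment 8 and 7 members (12.3% and 10.8%) were higher at an unadjusted p below 0.05, against 9.60% and 7.83% of all regions, and 1 and 1 (1.54% each) were lower, against 8.74% and 6.33%. In the fit reported, 12.3% of members and 12.0% of all regions were higher at that p, and 3.08% and 10.5% were lower. The members' median log2 difference was 0.17 and moved to -0.28 with background coverage scaling, 0.13 with the deposited fold enrichment and 0.23 with regions called in at least 3 libraries. It was 0.14 to 0.20 when 1 library was left out. The difference of Rpl10a was 0.027 with the deposited fold enrichment, against -0.35.

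The number of members called in all libraries was 65 and fell to 41 where a library's peaks had to cover 50% of the region, with 5 gained and 4 lost. Gained regions numbered 1, and were 0 at −log10 q of at least 10 and 2 among the top 15000 peaks. Lost regions numbered 2, and were 1 within 500 bp, at −log10 q of at least 5, with peaks within 500 bp merged or with CCDS starts only, and 0 at −log10 q of at least 10, among the top 15000 peaks and without shared regions. Leaving out 1 library gave 1 to 6 gained and 2 to 5 lost regions, since 1 library then decided a time point.

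With the replicate number as a block, 2 members rose and 1 fell, the same as without it, and the median stayed 0.17. Over all regions 611 rose and 465 fell, against 575 and 429. The labels do not say whether same-numbered libraries came from the same differentiation. Deviations of same-numbered libraries from their group means had a correlation of 0.0129 over 11494 regions, which at these low pileups cannot settle it. Over all regions the risen calls ranged from 23 (background coverage scaling) to 804 (without d2 replicate 1) and the fallen calls from 60 (deposited fold enrichment) to 998 (background coverage scaling). Pileups were low, with a median of 16 to 18 over all peaks, so small differences could not be detected.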
